A study of Mus musculus with 34 samples.

Results

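The Notch pathway genes examined here were 10 genes chosen by name: the receptors Notch1, Notch2 and Notch3, the ligands Dll1, Dll4, Jag1 and Jag2, the target genes Hes1 and Nrarp, and the glycosyltransferase gene Lfng. All 10 were found by symbol among the 54354 genes of the deposited table. RNA was measured in 34 libraries of mouse colon tumour organoids, epithelial cultures grown in 3 dimensions, all of the genotype that the labels call AKP. In the hairpin experiment, 10 libraries carried a control hairpin (shControl) and 3 a hairpin against Yap1 (shYAP). In the CRISPR experiment, in which Cas9 ribonucleoprotein was used, 3 libraries came from a Scrambled control and 9 from each of 2 clones with a knockout of Degs1, here clone1 and clone2. Each clone is 1 line, so a difference between a clone and its control cannot be told apart from a difference between lines. The labels do not say whether replicates were separate cultures, so p-values measure the spread between libraries, which may be technical. No label gives an age, a time point or a sex.

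Notch receptors sit in the cell membrane and are activated by ligands of the Delta and Jagged families on neighbouring cells. ADAM proteases and then gamma-secretase cut the bound receptor, and its freed intracellular part joins RBPJ and Mastermind proteins in the nucleus to switch on genes such as Hes1 and Nrarp. In the intestinal epithelium this signal is known to keep progenitors dividing and to hold back the secretory fate, in large part because Hes1 represses Atoh1.

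RefSeq promoter windows of build GRCm38.p6 were at hand for 9 of the 10 genes, in 10 windows of 250 bases before the start site. No window was at hand for Hes1, so its promoter was not searched. The core of the RBPJ site, TGGGAA, was searched on both strands, and no other motif was searched. It stood in 21.6% of 32851 windows of that length in the whole table, and among the 9 genes in Lfng only. The windows of 4 genes are shown up to the first base that GENCODE M21 places in an exon of the gene. Lfng is shown for its motif matches, Nrarp as a direct Notch target without one in this window, and Jag1 and Notch1 because their RNA differed between the clones. Capitals mark the core or its reverse complement.
Lfng (chr5:140607091-140607319, plus strand): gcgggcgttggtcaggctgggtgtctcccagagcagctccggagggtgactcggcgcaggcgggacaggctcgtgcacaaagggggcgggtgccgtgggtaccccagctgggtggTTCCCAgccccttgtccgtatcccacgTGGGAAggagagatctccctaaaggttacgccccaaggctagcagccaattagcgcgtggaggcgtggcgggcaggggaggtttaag
Nrarp (chr2:25180508-25180757, plus strand): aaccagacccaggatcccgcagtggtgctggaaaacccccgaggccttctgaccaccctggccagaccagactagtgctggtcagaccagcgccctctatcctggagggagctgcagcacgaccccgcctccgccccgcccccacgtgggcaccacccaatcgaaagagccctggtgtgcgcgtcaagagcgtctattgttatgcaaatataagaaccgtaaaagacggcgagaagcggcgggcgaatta
Jag1 (chr2:137116645-137116770, minus strand): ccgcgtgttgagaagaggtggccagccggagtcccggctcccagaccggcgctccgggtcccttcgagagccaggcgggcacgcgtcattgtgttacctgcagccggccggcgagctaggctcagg
Notch1 (chr2:26503825-26504072, minus strand): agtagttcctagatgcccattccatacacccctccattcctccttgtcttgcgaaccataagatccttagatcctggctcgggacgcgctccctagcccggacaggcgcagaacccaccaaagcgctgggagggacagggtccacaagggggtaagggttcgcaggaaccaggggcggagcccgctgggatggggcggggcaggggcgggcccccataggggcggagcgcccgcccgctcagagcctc
The Lfng matches began at position -135 on the minus strand and at -108 on the plus strand, counted from the RefSeq start. A match describes these letters and not a bound site, and a window without one says nothing about RBPJ elsewhere at the gene.

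Library totals ran from 883253 to 6597099 counts with a median of 4601905. Levels are given as CPM, a gene's count divided by the TMM-scaled size of its library, to compare libraries, and as CPM per kilobase of exon to compare genes. The targeted gene Degs1, the desaturase that completes ceramide, averaged 7.72 ± 2.62 CPM (SD, n = 3) in Scrambled, 2.41 ± 1.32 in clone1 and 1.71 ± 0.892 in clone2 (SD, n = 9 each). In the hairpin experiment Degs1 averaged 14.7 ± 4.21 CPM in shYAP (SD, n = 3) and 5.22 ± 1.67 in shControl (SD, n = 10). It was thus higher in shYAP, by 1.47 ± 0.29 (SE; adjusted p = 0.00205, edgeR). Yap1 was not lower in the libraries labelled shYAP, with 19.04 ± 1.12 CPM (SD, n = 3) against 16.5 ± 4.13 in shControl (SD, n = 10), so its RNA does not check that label. Of 7 epithelial markers all were detected, with summed levels from 1653 to 3351 CPM. The endothelial markers Cdh5, Kdr and Cldn5 were at 0 in all 34 libraries and 6 endothelial markers summed to at most 6.48 CPM, while 6 fibroblast markers reached at most 1.18 CPM. Of the immune markers Cd3e was at 0 throughout, and the list summed to 15.2 to 40.8 CPM in shControl, 11.6 to 15.7 in shYAP, 32.1 to 38.1 in Scrambled, 22.8 to 28.9 in clone1 and 17.4 to 31.4 in clone2. Its 1 tested gene, Cd68, was lower in clone2 than in Scrambled by -0.55 ± 0.15 (adjusted p = 0.00547, edgeR) and lower in shYAP than in shControl by -0.996 ± 0.268 (adjusted p = 0.0189, edgeR), and its part in the results below was not tested. In bulk RNA, fewer cells that express a gene and less RNA per cell cannot be told apart.

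Per kilobase of exon, Hes1 stood far above the other 9 genes, with a mean of 65.5 ± 27.1 CPM per kilobase (SD over 34 libraries, as for the next values). The Jagged ligands followed, Jag2 at 1.20 ± 0.332 and Jag1 at 0.834 ± 0.430, with Nrarp, a small ankyrin-repeat inhibitor of Notch signalling, at 0.802 ± 0.466. The receptors were lower, with Notch2 at 0.305 ± 0.157, Notch1 at 0.234 ± 0.150 and Notch3 at 0.145 ± 0.105. Dll4 at 0.189 ± 0.155 lay among them, and Lfng ended the detected genes at 0.0330 ± 0.0762. In this order the steps from Hes1 to Jag2, from Nrarp to Notch2 and from Notch3 to Lfng were larger than the larger SD of the pair, and the steps between the other neighbours were not. Notch4, named after its values were seen, had 0.928 ± 0.480 CPM per kilobase, above the means of the 3 receptor genes examined.

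**Figure D1:**
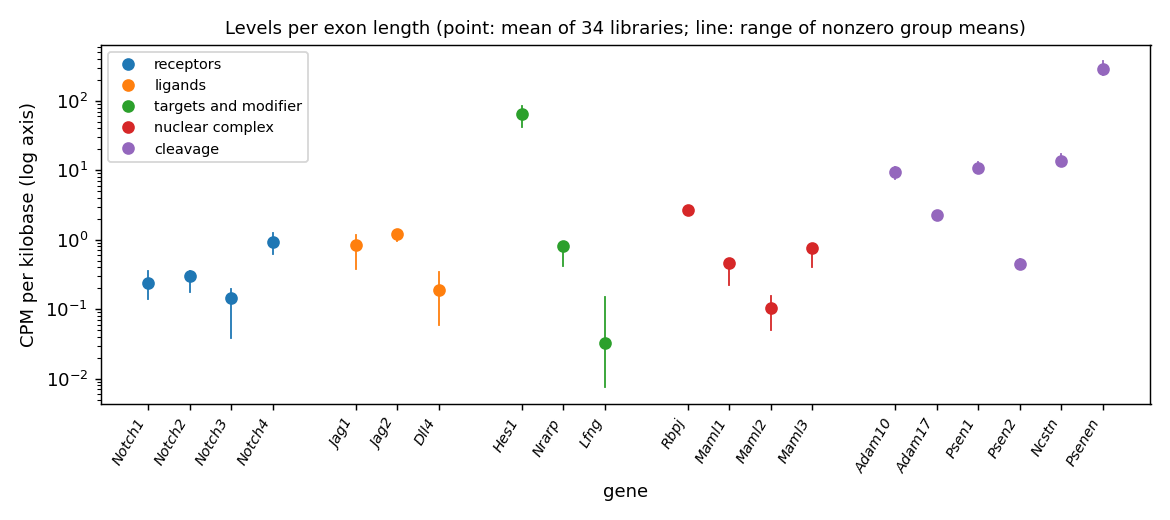
Level per kilobase of exon for Notch genes and their processing machinery on a log axis. Points are means of 34 libraries, lines span the nonzero means of the 5 groups, and colours give roles; Hes1 lies at 65.5 CPM per kilobase and the receptors Notch1, Notch2 and Notch3 between 0.145 and 0.305.

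Dll1, a Delta ligand used in the crypt, had 0 counts in all 34 libraries, which allows a level of up to 0.0194 CPM over the summed libraries (3 counts; counting error only). Dll4, the other Delta ligand examined, had 119 counts in all, with group means from 0.226 ± 0.221 CPM in shYAP (SD, n = 3) to 1.31 ± 0.598 in clone2 (SD, n = 9). Lfng, a fringe enzyme that lengthens sugars on the receptor and shifts its choice of ligand, had 14 counts in all. Those counts were 1, 1 and 3 in the shYAP libraries, 8 in 3 of 9 clone2 libraries and 1 in shControl. Lfng had 0 counts in the 9 clone1 libraries, which allows up to 0.0806 CPM over the group, and 0 in the 3 Scrambled libraries, which allows up to 0.191 CPM. These 3 genes did not pass the filter on low counts, so 7 genes were tested in the CRISPR experiment and 6 in the hairpin experiment, where Notch3 also fell below it. Without the filter, Lfng passed the threshold between clone2 and clone1 (adjusted p = 0.0202, edgeR), a call that rests on 8 counts against 0.

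Hes1, the transcription repressor that carries much of the Notch signal (ENSMUSG00000022528, mm10, chromosome 16, 30064384 to 30067796), stood in Scrambled at 155, 147 and 144 CPM. In clone1 it ranged from 112 over a median of 173 to 226 CPM, and in clone2 from 63.4 over 79.7 to 128 CPM. Every clone2 library lay below every Scrambled library, whereas clone1 reached both above and below Scrambled. Libraries with neighbouring library numbers were put into runs after values had been seen. Of the cuts, only that between shControl replicates 4 and 5 falls on a gap in the numbers. Correlations and spreads by run are therefore a description and cannot support the cuts. The median correlation of library deviations from the group mean was 0.179 within and -0.234 between runs in shControl, 0.088 and -0.201 in clone2, and -0.033 and -0.161 in clone1. Clone1 replicates 1 to 6 held 193 ± 29.4 CPM (SD, n = 6) and replicates 7 to 9 held 120 ± 6.95 (SD, n = 3). In clone2 the level was 127 ± 1.84 CPM in replicates 1 and 2 (SD, n = 2), 79.6 ± 2.14 in replicates 3 to 6 (SD, n = 4) and 65.6 ± 3.60 in replicates 7 to 9 (SD, n = 3). All 3 clone2 runs were below Scrambled, and the clones overlapped only through clone2 replicates 1 and 2. In the hairpin experiment, shControl replicates 8 to 10 stood at 71.1 to 92.2 CPM, inside the clone2 range.

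**Figure D2:**
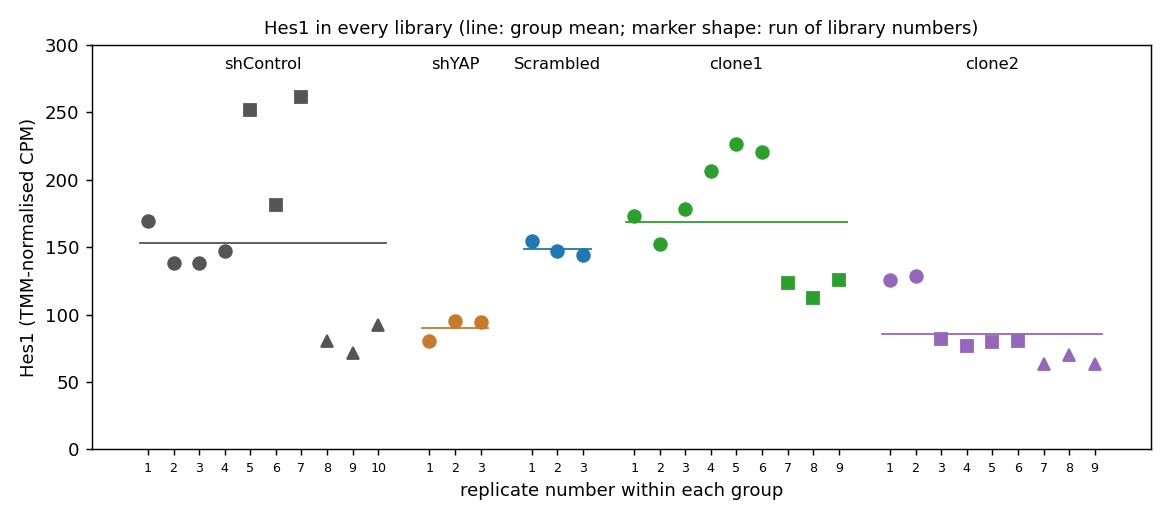
Hes1 level in each library (TMM-normalised CPM), in replicate order within the 5 groups; lines are group means and marker shapes separate runs of neighbouring library numbers. Clone2 libraries lie between 63.4 and 128 CPM, below the Scrambled libraries at 144 to 155 CPM, and shControl replicates 8 to 10 lie with the shYAP libraries.

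Hes1 was lower in clone2 than in Scrambled by a log2 fold change of -0.82 ± 0.22 (SE; adjusted p = 0.00554, edgeR quasi-likelihood test with Benjamini-Hochberg adjustment, as for all adjusted p-values unless another tool is named). It was also lower in clone2 than in clone1, by -1.01 ± 0.16 (adjusted p = 2.48e-05). By replicate numbers, the clone difference was -1.04 among replicates 1 to 6, which pool both earlier runs of clone2. It was -0.86 among replicates 7 to 9, 1 run in each clone. The spread within 1 run does not measure the spread between runs, so these subset values are a description. Clone1 did not pass the threshold against Scrambled, with 0.19 ± 0.23 (adjusted p = 0.67). Its replicates 1 to 6, at 193 CPM, lay above the Scrambled mean of 149 CPM, and its replicates 7 to 9, at 120 CPM, below. Replicates 7 to 9 alone differed from Scrambled by -0.31, on a cut made after values had been seen. Both clones together gave -0.32 ± 0.20 (adjusted p = 0.323). Of 6 absorptive colonocyte markers 3 were tested, and all 3 were lower in clone2 than in clone1, where 49.1% of all genes passed. Krt20 among them was lower by -3.73 ± 0.31 (adjusted p = 2.28e-11), and none of the 6 was at 0 throughout. Against Scrambled, 2 of the 3 were higher in clone1, where 12.7% of all genes passed and Hes1 did not. The summed level of the 6 was 566 to 1441 CPM in clone1, 152 to 553 in clone2 and 138 to 158 in Scrambled. Most of it was Car1, which averaged 487 CPM over the 34 libraries, against 8.75 for Krt20, the next highest. Of 7 epithelial markers 5 were lower in clone2 than in clone1 (49.1% of all genes passed), with sums of 1855 to 2537 against 2572 to 3351 CPM. Between clone2 and Scrambled, where 33.1% of all genes passed, 3 of 3 tested absorptive markers did, 1 higher and 2 lower. So did 5 of 7 epithelial markers, 1 higher and 4 lower, with an epithelial sum of 2219 to 2486 CPM in Scrambled. Of 6 endothelial markers 1 was tested, Vwf, higher in clone2 than in Scrambled by 2.17 ± 0.69 (adjusted p = 0.0129), with list sums of 1.97 to 6.48 against 1.24 to 2.54 CPM. The part of these markers in the results for Hes1 and for the other members was not tested.

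Jag1, the Jagged ligand with the clearest change (ENSMUSG00000027276, chromosome 2, 137081456 to 137116644), stood at 6.70, 6.18 and 6.90 CPM in Scrambled. It ranged from 2.21 over a median of 5.74 to 11.1 CPM in clone1 and from 0.925 over 1.84 to 4.37 CPM in clone2. All clone2 libraries were below all Scrambled libraries, and the clones overlapped. Jag1 was lower in clone2 than in Scrambled by -1.56 ± 0.35 (adjusted p = 0.000696) and lower than in clone1 by -1.52 ± 0.28 (adjusted p = 2.06e-05). As a description, the clone difference was -1.13 among replicates 1 to 6 and -1.99 among replicates 7 to 9. Clone1 did not pass against Scrambled (-0.04 ± 0.35, adjusted p = 0.96). By runs, clone1 held 4.74 ± 1.55 CPM in replicates 1 to 6 (SD, n = 6) and 8.84 ± 1.97 in replicates 7 to 9 (SD, n = 3). These means lay on either side of the Scrambled mean of 6.59 CPM. In shControl, Jag1 ranged from 2.76 to 8.67 CPM, which overlapped clone2. Jag2, the other Jagged ligand, averaged 8.52 ± 0.601 CPM in Scrambled (SD, n = 3), 8.24 ± 1.56 in clone1 and 7.44 ± 2.16 in clone2 (SD, n = 9 each). Its difference between clone2 and Scrambled was -0.22, with a 95% interval of -0.73 to 0.29.

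Notch1, the receptor that with Notch2 serves the intestinal crypt (ENSMUSG00000026923, chromosome 2, 26457903 to 26516663), stood at 2.31, 2.32 and 3.25 CPM in Scrambled. In clone1 it ranged from 2.87 over a median of 4.42 to 7.70 CPM, and in clone2 from 0.589 over 1.85 to 3.45 CPM. The clones overlapped, and the Scrambled libraries lay within the range of clone2. Notch1 was lower in clone2 than in clone1 by -1.36 ± 0.32 (adjusted p = 0.000572). As a description, its clone difference was -1.44 among replicates 1 to 6 and -1.19 among replicates 7 to 9. Against Scrambled neither clone passed, with 0.94 ± 0.45 in clone1 (adjusted p = 0.182) and -0.42 ± 0.45 in clone2 (adjusted p = 0.512). With shControl in place of Scrambled, the clone2 difference was -0.96 (adjusted p = 0.0436).

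Notch2 (ENSMUSG00000027878) averaged 1.93 ± 0.881 CPM in Scrambled (SD, n = 3), 3.82 ± 2.27 in clone1 and 3.53 ± 1.50 in clone2 (SD, n = 9 each), and neither clone passed against Scrambled, at 1.02 ± 0.50 (adjusted p = 0.192) and 0.83 ± 0.50 (adjusted p = 0.205). Notch3, a receptor better known from vessel walls, averaged between 0.307 ± 0.266 CPM in shYAP (SD, n = 3) and 1.55 ± 0.940 in clone2 (SD, n = 9). Nrarp averaged 1.92 ± 0.817 CPM in Scrambled (SD, n = 3), 2.36 ± 1.07 in clone1 and 1.78 ± 1.19 in clone2 (SD, n = 9 each). Nrarp did not pass in any comparison. Between the clones its difference was -0.51 with a 95% interval of -1.29 to 0.27, which holds both 0 and the -1.01 of Hes1. Nrarp had 321 counts over all libraries and Hes1 had 20066.

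**Figure D3:**
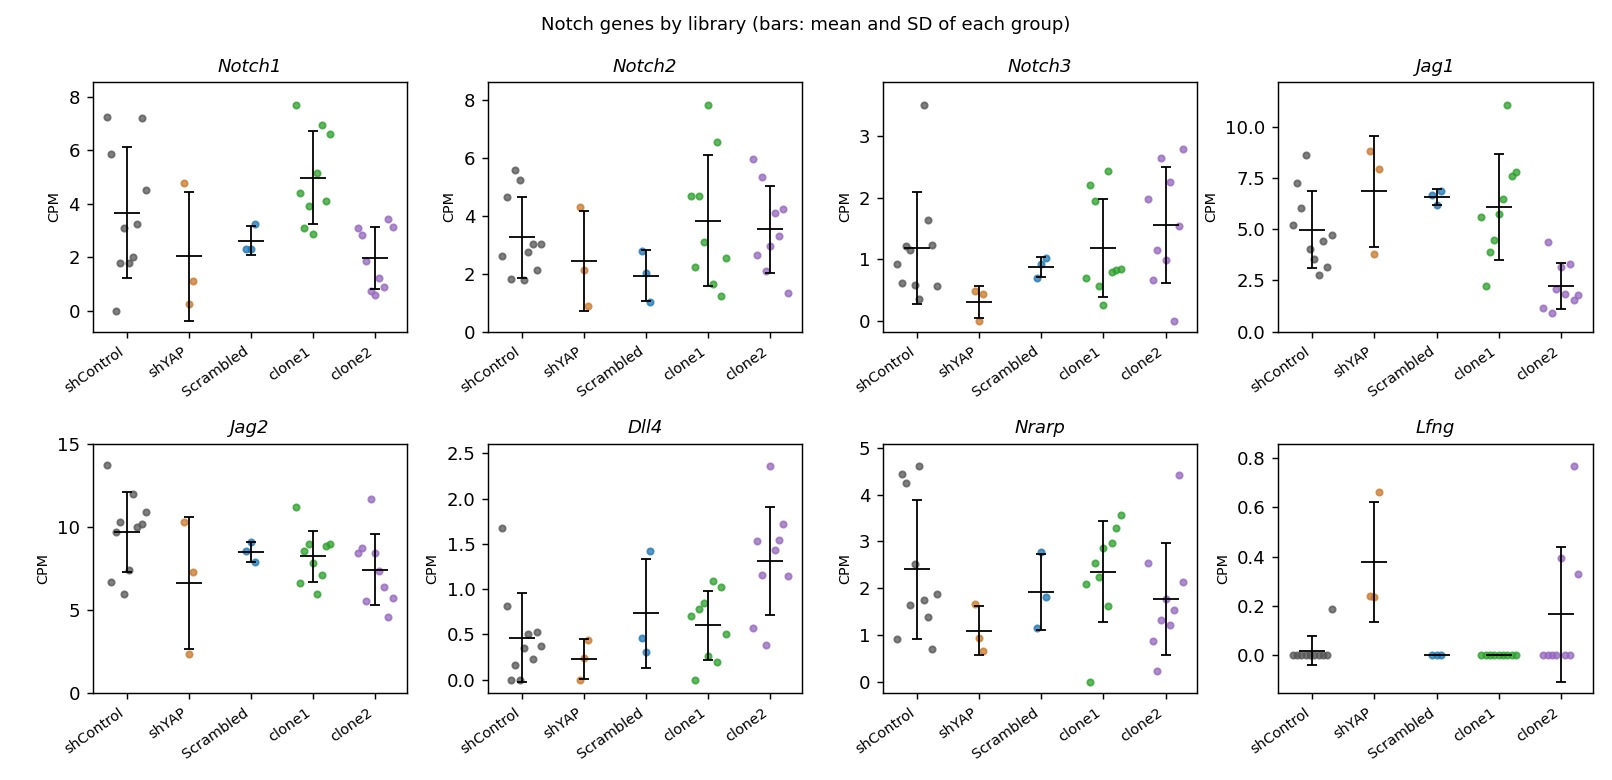
Level of 8 Notch genes in each library (TMM-normalised CPM) by group; each panel has its own scale, and bars give the mean and SD. Jag1 is lowest in clone2, at 0.925 to 4.37 CPM, and Lfng is at 0 in all Scrambled and clone1 libraries.

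Counted over the members, 2 of 7 tested were lower in clone2 than in Scrambled, Hes1 and Jag1, where 33.1% of all genes tested passed. Between clone2 and clone1, 3 of 7 were lower and none higher, where 49.1% of all genes passed. Neither share of the members exceeded that of all genes. None of 7 passed between clone1 and Scrambled, with 2 at an unadjusted p under 0.05, where 12.7% of all genes passed. For both clones against Scrambled none of 7 passed, with 1 at an unadjusted p under 0.05, where 17.6% of all genes passed. DESeq2 and limma also called 0 in both of these comparisons. The median log2 fold change of the 7 was -0.51 between clone2 and clone1, where that of all genes was -0.05, and -0.22 between clone2 and Scrambled, where that of all genes was -0.03.

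**Figure D4:**
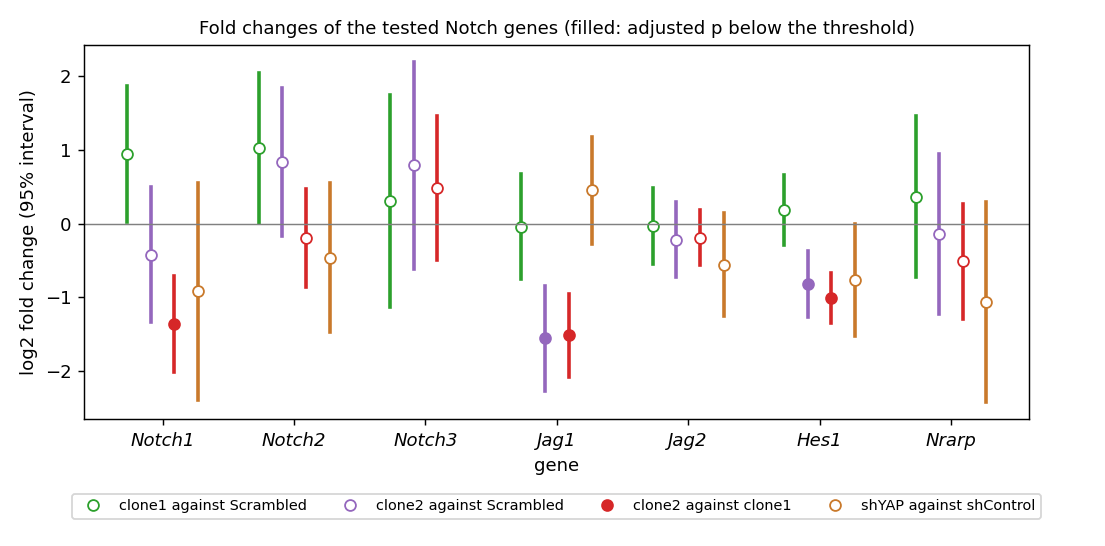
Log2 fold change of the tested Notch genes in 4 comparisons, with 95% intervals as lines; filled points passed an adjusted p of 0.05. Jag1 and Hes1 are filled for clone2 against Scrambled and against clone1, Notch1 only for clone2 against clone1, and no gene for clone1 against Scrambled or shYAP against shControl.

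In the hairpin experiment Hes1 stood at 80.6, 95.3 and 94.2 CPM in the shYAP libraries and ranged from 71.1 over a median of 143 to 261 CPM in shControl. The shYAP libraries lay inside the shControl range. The difference was -0.77 ± 0.35 with a 95% interval of -1.53 to -0.01, and did not pass (adjusted p = 0.179). By runs, shControl held 148 ± 14.6 CPM in replicates 1 to 4 (SD, n = 4), 231 ± 43.6 in replicates 5 to 7 (SD, n = 3) and 81.3 ± 10.6 in replicates 8 to 10 (SD, n = 3). Against replicates 8 to 10 alone, whose library numbers stand next to those of shYAP, the difference was 0.14 (adjusted p = 0.441). Blocking on the replicate number, although the numbers did not pair the libraries, gave -0.73 (adjusted p = 0.0084). Jag1 was at 8.85, 3.79 and 7.94 CPM in shYAP against 4.99 ± 1.87 in shControl (SD, n = 10), a difference of 0.45 with an interval of -0.28 to 1.17. Notch1 was at 4.79, 0.237 and 1.10 CPM in shYAP, a spread wider than the distance between the means of 2.04 CPM in shYAP and 3.68 in shControl. None of the 6 genes tested passed in edgeR, where 11.4% of all genes did, and none passed by DESeq2 or by limma. In edgeR, 1 of the 6 had an unadjusted p under 0.05.

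The Degs1 knockout effect over both clones was set against the shYAP effect, each relative to its own control. None of 7 members passed in edgeR, where 18.8% of all genes did, and none passed by DESeq2 or by limma. In edgeR, 3 of the 7 had an unadjusted p under 0.05. Jag1 came nearest, with a difference of -1.25 ± 0.48 (adjusted p = 0.0592), and passed without shYAP replicate 2 (-1.54, adjusted p = 0.0366). Notch1 was at 1.19 ± 0.78 (adjusted p = 0.304) and passed without shYAP replicate 1 (2.72, adjusted p = 0.0405). Between the 2 control groups, Scrambled against shControl, none of 7 members passed in edgeR, where 2.95% of all genes did. None passed by DESeq2 or by limma, and none had an unadjusted p under 0.05 in edgeR.

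Of 50 other genes of the pathway, listed by role, 35 were tested in the CRISPR experiment and 33 in the hairpin experiment. Between clone2 and clone1, 13 of 35 passed, 2 higher and 11 lower, where 49.1% of all genes passed. With limma and runs as a random block this fell to 7 of 35, 2 higher and 5 lower. Against Scrambled, 6 of 35 passed in clone2 (1 higher, 5 lower), where 33.1% of all genes did. In clone1 3 of 35 passed (1 higher, 2 lower), where 12.7% of all genes did, and for both clones together 3 of 35 (1 higher, 2 lower), where 17.6% did. In the hairpin experiment, where 11.4% of all genes passed, 1 of 33 did, the sheddase gene Adam10, at -0.60 ± 0.17 (adjusted p = 0.0253), and it did not pass when any 1 of the 3 shYAP libraries was left out (adjusted p = 0.0724 to 0.159). For the difference between both effects 6 of 35 passed, 4 higher and 2 lower, where 18.8% of all genes did. Between the control groups, where 2.95% of all genes passed, 0 of 35 did in edgeR, with 3 at an unadjusted p under 0.05, and 0 in DESeq2 and in limma.

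Among the genes that add sugars to the receptor, Poglut1, the enzyme that puts O-glucose on its EGF repeats (chromosome 16, 38525137 to 38550258), was close to 0 in clone2. It averaged 13.8 ± 2.32 CPM in Scrambled (SD, n = 3), 9.05 ± 3.04 in clone1 and 0.392 ± 0.319 in clone2 (SD, n = 9 each), with 18 counts over the 9 clone2 libraries and 11.0 and 11.2 CPM in shControl and shYAP. No clone2 library, at 0 to 0.942 CPM, reached the lowest clone1 library at 2.21 CPM. Poglut1 was lower in clone2 by -5.00 ± 0.36 against Scrambled (adjusted p = 1.24e-13) and by -4.45 ± 0.32 against clone1 (adjusted p = 2.72e-14). The other 2 tested genes of this group, of 4 listed, did not pass in any comparison. Of all genes, 33.1% passed in clone2 against Scrambled and 49.1% between the clones.

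Of 10 genes for receptor cleavage, 7 passed between clone2 and clone1, 2 higher and 5 lower, where 49.1% of all genes passed. Aph1b, a gamma-secretase subunit gene (chromosome 9, 66775202 to 66795490), had its lowest mean in clone1, 0.941 ± 1.06 CPM, against 4.79 ± 1.09 in Scrambled (SD, n = 3) and 5.25 ± 1.70 in clone2 (SD, n = 9 for each clone). It was lower in clone1 than in Scrambled by -2.46 ± 0.53 (adjusted p = 0.00151), and the groups did not overlap. Its near copy Aph1c could share reads with it, so the level of either gene is uncertain. Psenen, another gamma-secretase subunit gene, was higher in clone2 at 477 ± 28.5 CPM (SD, n = 9) than in Scrambled at 301 ± 20.8 (SD, n = 3), by 0.65 ± 0.11 (adjusted p = 1.25e-05), while the subunit gene Ncstn was lower by -0.58 ± 0.16 (adjusted p = 0.00559; 0.0738 without Scrambled replicate 3).

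**Figure D5:**
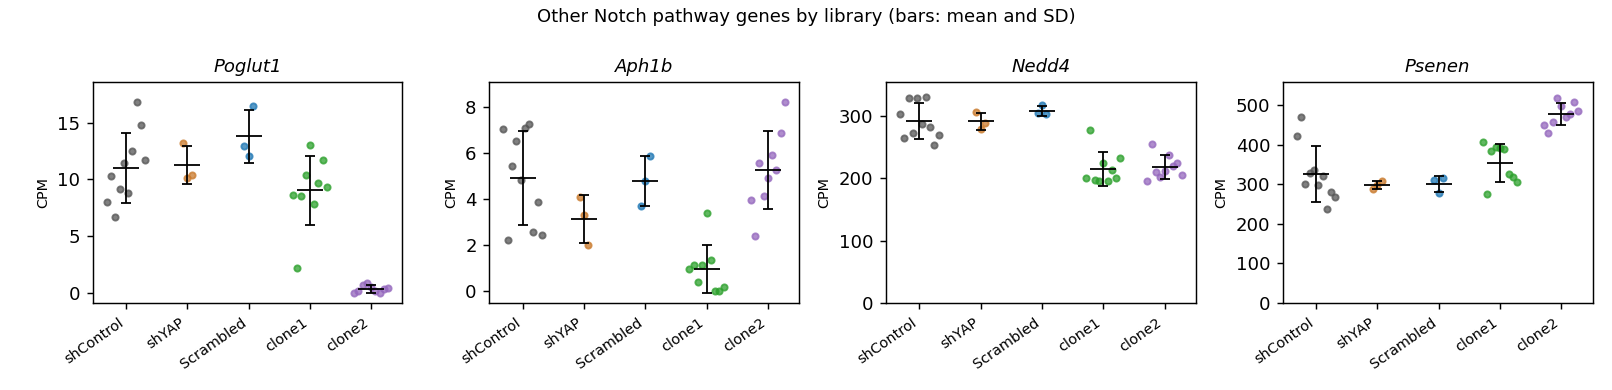
Level of 4 other pathway genes in each library (TMM-normalised CPM) by group, with mean and SD as bars and a scale per panel. Poglut1 lies at 0 to 0.942 CPM in clone2, Aph1b is lowest in clone1, Nedd4 is lower in both clones and Psenen is highest in clone2.

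Nedd4, a ubiquitin ligase that acts on membrane proteins including Notch, moved alike in both clones. It averaged 309 ± 7.93 CPM in Scrambled (SD, n = 3), 215 ± 27.0 in clone1 and 218 ± 18.6 in clone2 (SD, n = 9 each), and was lower by -0.52 ± 0.10 in each (adjusted p = 0.000553 and 0.000146). Of 10 genes of the nuclear complex, 9 were tested. Against Scrambled, 1 of the 9 passed in clone2, where 33.1% of all genes did, and 1 in clone1, where 12.7% did. The coactivator gene Crebbp was lower in clone2 than in Scrambled by -0.78 ± 0.18 (adjusted p = 0.000873), and its relative Ep300 was higher in clone1 by 0.82 ± 0.24 (adjusted p = 0.019). The Ep300 call was lost without Scrambled replicate 1 or 2 (adjusted p = 0.0727 and 0.149) and shrank to 0.05 against shControl. Of 5 ligand ubiquitination genes, Neurl1b alone passed. It was lower in clone2 than in Scrambled by -1.39 ± 0.52 (adjusted p = 0.0353), where 33.1% of all genes passed. It was lower in clone2 than in clone1 by -1.16 ± 0.40 (adjusted p = 0.0166), where 49.1% of all genes passed. Without any 1 Scrambled library the call against Scrambled was lost (adjusted p = 0.0676 to 0.141). None of the 7 other Hes and Hey genes listed had enough counts to be tested. Hes3 and Heyl were at 0 in every library, as were Dlk1 and Dtx1 of the other lists. Among the listed Hes and Hey genes, only Hes1 could thus be compared.

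The genes most alike Hes1 across the 34 libraries, by Pearson r of log2 CPM among 6622 genes, were Mbnl2 (r = 0.860) and Tmem45b (r = 0.850). Within clone2 alone these were 0.035 and 0.148, and within clone1 0.770 and 0.946. Jag1 was most like Gars (r = 0.797) and C1qbp (r = 0.776), and Notch1 most like Tango2 (r = 0.751) and Gla (r = 0.709). For Notch2, Notch3, Jag2 and Nrarp the highest values were 0.524 with Araf, 0.590 with Pnpla8, 0.572 with B4galt1 and 0.600 with Fgd6. These values share groups, runs and depth, and are given as a description.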

How the data were processed

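Per the labels' protocols, libraries were strand-specific and made from poly(A)-selected RNA of organoids. The values deposited by the authors are expected counts per gene, all whole numbers; the submitters' processing notes name Salmon 1.3.0 and mm10. How transcripts were summed to genes is not given in the sources used here. Of the 54354 genes, 29742 had 0 counts throughout, and the 1243 unnamed entries took up no more than 0.0475% of a library.

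The 10 members, the lists of other pathway genes and the marker lists were chosen with earlier results of these data known. Named are the members, the targeted genes, of each other list up to 4 genes per comparison with the largest change among those past the threshold and a mean log2 CPM no lower than 1, list genes at 0 throughout, and for each tested member the 2 genes most like it whose mean log2 CPM reached 3. Notch4, Aph1c, Atoh1, Foxa3, Sox4, Creb3l1 in clone2 and the plotted genes that did not pass were added after their values were seen.

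Genes were filtered with filterByExpr (minimum count 10, total 15), scaled by TMM and tested in R 4.3.3 with edgeR 4.0.16 (glmQLFit, robust, and glmQLFTest, the quasi-likelihood test, two-sided), with Benjamini-Hochberg adjustment over all genes and a threshold of 0.05. The CRISPR fit held 21 libraries, the hairpin fit 13, and the fit for the difference of effects and for the controls 34. CPM and log2 CPM (prior count 2) were computed here, and exon lengths came from GENCODE M21. Same-numbered libraries did not deviate together (r from -0.069 to 0.076 after removing group means), so no block was used. Runs were defined from library numbers after values had been seen, and the labels name no batch. Alternatives were DESeq2 1.42.0, its size factors, limma 3.58.1 with and without runs as a random block, no filter, the replicate block, left-out libraries, subsets of replicates and other controls. The effect difference with shControl replicates 8 to 10 alone was chosen after seeing the data. The steps were tested on simulated data.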

Additional observations from a re-analysis of the deposited data

Results flagged for a closer look

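Notch3 in shControl replicate 7 stood at 3.51 CPM, apart from the other 9 libraries of its group, the next of which was at 1.63 CPM. Its distance to that library was large for the range of the group. It was 1 of 21 group and gene combinations looked at in this way, of which chance picks out about 1 in 20. No Notch3 comparison passed the threshold.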

How the results depend on the processing

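All 68 alternative values for the members between clone2 and clone1 kept their direction and their side of the threshold. With limma and runs as a random block, Hes1 was at -0.83 (adjusted p = 0.00666) and Jag1 at -1.51 (adjusted p = 0.0214) in clone2 against Scrambled. Over all comparisons, 556 of 587 values for members kept both, 0 lost a call, 7 gained one with the same sign and 24 changed sign. Among the values that changed sign, Hes1 in clone1 with replicates 7 to 9 alone also gained a call. The count of members past the threshold rose from 0 to 1 for both clones with knockout replicates 1 to 6 alone (Jag1, -0.95) and with replicates 7 to 9 alone (Hes1, -0.74), for clone1 with replicates 7 to 9 alone (Hes1, -0.31), for shYAP with the replicate block (Hes1, -0.73), and for the difference of effects with shControl replicates 8 to 10 alone (Jag1, -1.55). Leaving out 1 Scrambled or shYAP library moved that last count between 0 and 1. The subsets of replicates follow cuts made after values had been seen, so calls within them are a description.

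Sign changes were these, as log2 fold changes. For both clones, Nrarp went to -0.45 with the replicate block, -0.059 with limma, -0.0076 with limma and runs, -0.14 to 0.50 over fits without 1 Scrambled library (-0.14 without replicate 1), -0.11 against shControl and -0.23 with replicates 1 to 6 alone, and Notch1 to -0.29 against shControl. For clone1, Jag2 went to 0.075 and Nrarp to -0.15 with the replicate block, Jag2 to between -0.085 and 0.034 without 1 Scrambled library (0.034 without replicate 2), Notch3 to -0.083 and Jag1 to 0.35 against shControl, Jag1 to 0.41 and Hes1 to -0.31 with replicates 7 to 9 alone, and Jag1 to 0.014 without the shallowest knockout library. For clone2, Nrarp went to between -0.40 and 0.24 without 1 Scrambled library (0.24 without replicate 2) and 0.46 with replicates 7 to 9 alone. Hes1 went to 0.14 for shYAP and -0.47 for the difference of effects with shControl replicates 8 to 10 alone. Between the controls, Hes1 went to 0.081 with limma, 0.085 with limma and runs and 0.89 against shControl replicates 8 to 10, and Nrarp to between -0.62 and 0.025 without 1 Scrambled library (0.025 without replicate 1) and 0.58 against shControl replicates 8 to 10. The cause was not tested.

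Of 448 values for other pathway genes that passed, 371 kept the call, 76 lost it and 1 changed sign (Ep300 between the clones, 0.14 with replicates 7 to 9 alone). Adam10 in shYAP was called in no fit that left out 1 shYAP library, and fewer libraries remain there.

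Over all genes, limma with runs as a random block called 908 for both clones, 456 for clone1, 2271 for clone2, 298 for shYAP, 746 for the difference of effects and 64 between the controls, against 2027, 1459, 3810, 1261, 2253 and 353. Leaving out 1 Scrambled or shYAP library gave 1208 to 1374 for both clones, 779 to 1025 for clone1, 412 to 515 for shYAP and 102 to 195 between the controls, and 2904 to 2975 for clone2 and 1586 to 1824 for the difference of effects. Without the shallowest knockout library, both clones gave 2170 and clone1 1596. For shYAP, 1 fit of all 34 libraries called 2065 and shControl replicates 8 to 10 alone 2229. Clone1 against shControl gave 2503, and the difference of effects with shControl replicates 8 to 10 alone 1423. Dll1, Dll4, Lfng and, in the hairpin fit, Notch3 had too few counts to be tested, and whether deeper libraries would show them was not tested.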

Other observations

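Of 10 genes for commitment to the secretory lineage, which Notch signalling holds back, 3 had enough counts to be tested and Gfi1 was at 0 in every library. Atoh1, the factor at the top of that lineage, had at most 4 counts in any library. Creb3l1, a transcription factor of secretory cells, averaged 2.37 ± 1.03 CPM in Scrambled (SD, n = 3) and 0.313 ± 0.449 in clone2 (SD, n = 9), a log2 fold change of -2.73 ± 0.72 (adjusted p = 0.00324, edgeR). It was also lower in shYAP, at 0.299 ± 0.335 CPM (SD, n = 3) against 2.71 ± 1.34 in shControl (SD, n = 10), by -3.07 ± 0.76 (adjusted p = 0.0121, edgeR). Foxa3 and Sox4, the other 2 tested, passed in none of the 7 comparisons. Of all genes, 33.1% passed in clone2 against Scrambled and 11.4% in shYAP against shControl. Goblet markers summed to 317 to 321 CPM in Scrambled, 208 to 287 in clone1 and 199 to 329 in clone2. Sums were 133 to 261 in shControl and 145 to 163 in shYAP. Most of this was Agr2, with a mean of 223 CPM over the 34 libraries, where Muc2 had 0.130. Of 3 tested, 1 was lower in clone2 than in Scrambled (33.1% of all genes passed) and none passed in clone1 (12.7%). Between the clones 1 was higher in clone2 (49.1%). Of 4 tested against shControl, none passed in shYAP (11.4%) and 1 was higher in Scrambled (2.95%). Of 6 enteroendocrine markers 1 was tested, Pyy, and it was higher than in Scrambled by 3.01 ± 0.97 in clone1 (adjusted p = 0.0401, edgeR) and by 2.53 ± 0.97 in clone2 (adjusted p = 0.0466, edgeR). The summed list stood at 0 to 1.39 CPM in Scrambled, 0.992 to 7.32 in clone1 and 0.982 to 10.6 in clone2. In shControl it ranged from 0 to 12.0 CPM, a range that holds both clones, and in shYAP from 0 to 1.98. Scrambled against shControl gave a log2 fold change of -2.77 for Pyy, which did not pass.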
